A study of Mus musculus with 2 samples.

Results

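The cells described here are macrophages of mouse fat tissue chosen by transcripts of Gpnmb, Spp1 and Mmp12, the genes commonly used to mark lipid-associated macrophages. They come from 2 droplet-based single-cell RNA libraries of epididymal white adipose tissue, made from its stromal vascular fraction, which holds the tissue's cells other than adipocytes. One library was from male wild-type C57BL/6J mice of 18 weeks on a high-fat diet (HFD) for 12 weeks. The other was from mice of the same sex, strain and age on a normal chow diet (NCD). Digestion took 30 min at 37 °C in 1 mg/ml collagenase II. Over 80% of the cells were viable, 6000 went into each channel of a 10x 3' kit, and the stated depth was 50000 reads or more for a cell. With 1 library per diet there were no replicates, so no test was made, diet and library cannot be told apart, and every interval below is a 95% interval that covers counting error only. How many animals went into a library is not given in the sources used here.

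UMIs (unique molecular identifiers) each stand for a counted transcript molecule. A barcode was kept if it showed 500 genes or more and no more than 20% of its UMIs were mitochondrial. It was gated as a macrophage when the 3 complement genes C1qa, C1qb and C1qc made up at least 0.5% of its UMIs and 9 stromal genes under 1.5%. A lipid-associated macrophage then had at least 2 UMIs of Gpnmb, Spp1 and Mmp12 together and at most 1 UMI of the resident macrophage genes Lyve1, Cd163 and Timd4. This left 592 cells in the HFD library and 12 in the NCD library, 604 of 14205 barcodes in all. They were 33.9% of the 1747 gated macrophages of the HFD library (31.7 to 36.2), against 0.528% of the 2274 gated macrophages of the NCD library (0.273 to 0.920). Of all filtered cells they were 8.72% in the HFD library and 0.163% in the NCD library.

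Lipid-associated macrophages are phagocytes that gather around dying adipocytes in the fat of obese animals. They take up lipid, break it down in lysosomes and handle the cholesterol and fatty acids that this frees, and the lipid-sensing receptor Trem2 is the surface protein best known for directing this state. Gpnmb encodes a glycoprotein of lysosomes and of the cell surface, Spp1 encodes osteopontin, a secreted adhesion protein, and Mmp12 encodes the elastase of macrophages.

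The cells were compared within the HFD library with the 719 gated macrophages that met the same limit on resident genes and had 0 UMIs of Gpnmb, Spp1 and Mmp12, called marker-zero macrophages below. Between them lay 335 macrophages with exactly 1 such UMI. The genes used by the choice are given as a description, and so is every other gene of these cells, since all were read in the cells that were chosen. The median lipid-associated macrophage held 2518 UMIs and 1036 genes, the median 1-UMI macrophage 2075 UMIs and the median marker-zero macrophage 1899 UMIs and 870 genes. A limit of 2 UMIs is met more easily by a deeper cell. With every gated macrophage thinned to 1500 UMIs, which left out 170 HFD cells that were shallower, 25.1% of 1561 HFD cells (23.0 to 27.3) and 0.221% of 2264 NCD cells met it.

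Free RNA, meaning transcripts of other cells caught in a droplet, can add to such a choice. Of stromal cells, which made up most of the rest of the tissue, 356 of 3277 in the HFD library (10.9%, 9.82 to 12.0) and 161 of 3254 in the NCD library (4.95%, 4.23 to 5.75) also had at least 2 UMIs of the 3 genes. The median depths of these cells were 2275 and 5607 UMIs, against 1975 and 4666 UMIs for all stromal cells of each library. Those HFD stromal cells held all 3 genes, with Gpnmb at 514 CPM, Spp1 at 411 CPM and Mmp12 at 718 CPM. Those NCD stromal cells held Gpnmb at 427 CPM, but Spp1 and Mmp12 at 2.11 CPM each, while NCD gated macrophages held Gpnmb at 2.93 CPM. The NCD stromal share is therefore not a measure of free RNA in NCD macrophages. The 12 NCD cells are few and are described by their counts. The median of 15 stromal markers in lipid-associated macrophages was 20.4% of its level in the whole HFD library, against 27.7% in 1-UMI and 31.0% in marker-zero macrophages, and it was 6.07% in the gated macrophages of the NCD library. With free RNA subtracted in the proportion given by stromal markers, the 30 genes ranked below kept their direction and stayed at least 2-fold apart. Subtraction widened most of these ratios, with a median change of 0.47 log2, so it could hardly have brought the pools together. Levels in HFD stromal cells are given beside some of the genes that those cells also hold, so a missing value does not mean absence. Apoe and Ctsd, for example, were seen in 94.5% and 66.6% of HFD stromal cells. The libraries had 64 barcodes in common, which included 9 of the 592 HFD cells and 1 of the 12 NCD cells.

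Within the HFD cells, Gpnmb had 2470 UMIs in all, at 1048 CPM (counts scaled to a total of 1000000), and was seen in 83.8% of cells. Mmp12 had 2138 UMIs at 907 CPM and was seen in 60.5%, and Spp1 had 1410 UMIs at 598 CPM and was seen in 39.7%. The commonest combination was Gpnmb with Mmp12 and no Spp1, in 209 cells, followed by Gpnmb alone in 114, all 3 genes in 92 and Gpnmb with Spp1 in 81. Spp1 alone was seen in 39 cells, Mmp12 alone in 34 and Spp1 with Mmp12 in 23. The median cell held 4 UMIs of the 3 genes and the highest held 194. The 60 cells with the most of each gene held 80.7% of the UMIs of Spp1, 62.6% of those of Mmp12 and 49.9% of those of Gpnmb, so Spp1 was the most unevenly spread of the 3.

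**Figure D1:**
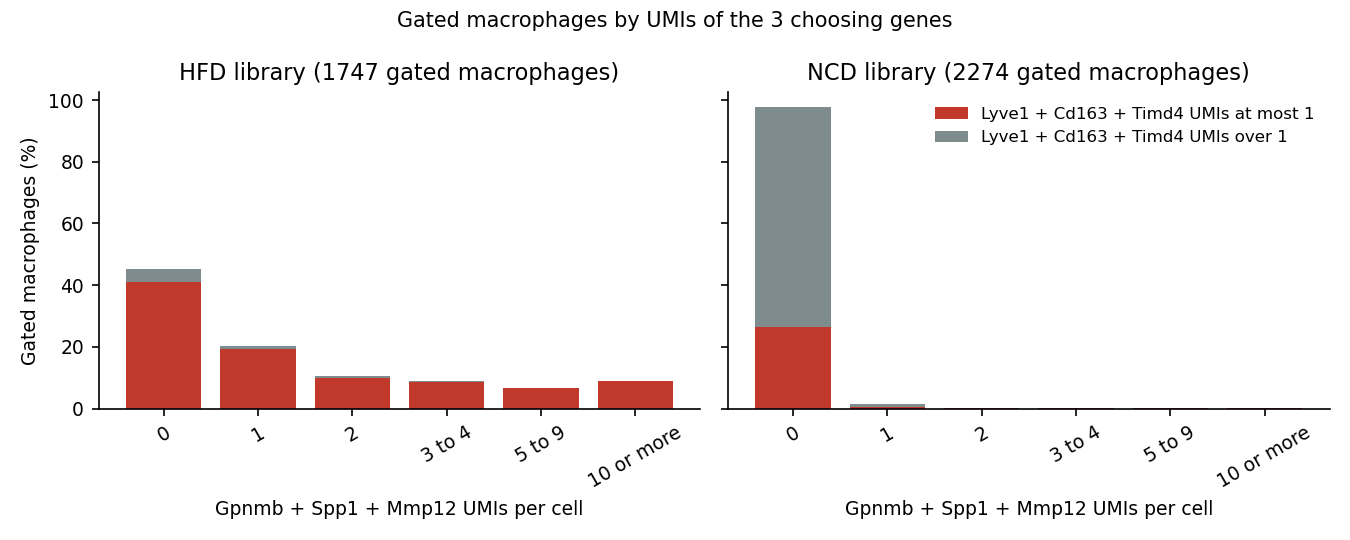
Share of gated macrophages (vertical axis, percent) by the UMIs of Gpnmb, Spp1 and Mmp12 per cell (horizontal axis) in the HFD library (left) and the NCD library (right). Red marks cells with at most 1 UMI of Lyve1, Cd163 and Timd4, and grey marks cells over that limit, which were 5.78% of HFD and 72.5% of NCD gated macrophages.

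Just inside the limit, 173 cells (29.2% of the 592) had exactly 2 UMIs of the 3 genes, with Gpnmb at 430 CPM, Spp1 at 159 CPM and Mmp12 at 186 CPM. Just outside it, the 1-UMI macrophages had Gpnmb at 170.5 CPM, Spp1 at 74.2 CPM and Mmp12 at 110 CPM. HFD stromal cells held Gpnmb at 118 CPM and Spp1 at 65.1 CPM. At the far end, 154 cells (26.0%) had 10 or more, with a median depth of 4231 UMIs. The limit on resident genes removed few cells, since 14 of the 606 HFD macrophages with at least 2 UMIs of the 3 genes were over it, against 5 of 17 in the NCD library. To read the 3 genes in molecules that had not chosen the cells, the UMIs of each cell were split at random into equal parts. In 393 cells chosen on one part, the other part held Gpnmb at 1131 CPM, against 119 CPM in the 935 cells with none in the choosing part, a 9.54-fold difference (8.01 to 11.4). Spp1 was then at 703 against 50.4 CPM and Mmp12 at 1025 against 69.9 CPM.

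The label rests on 4 markers, of which the choice did not use Trem2 and Cd9. Trem2 (chromosome 17, 48346401 to 48354147, GRCm38) was at 1666 CPM (1615 to 1719) in lipid-associated macrophages, 1021 CPM in 1-UMI macrophages and 839 CPM (797 to 883) in marker-zero macrophages, and at 112 CPM in stromal cells. In cells thinned to 1500 UMIs it was seen in 85.6% of lipid-associated and 59.4% of marker-zero macrophages, and in 13.9% of stromal cells as background (unthinned 92.6%, 68.4% and 19.5%). Trem2 therefore differed by amount and was not confined to the chosen cells. Cd9 (chromosome 6, 125460266 to 125494791), a tetraspanin of the cell surface, was at 931 CPM in lipid-associated and 496 CPM in marker-zero macrophages, but stromal cells held it at 797 CPM. Both markers outside the choice were thus higher in the chosen cells, and Cd9 was also frequent in stromal cells. Gpnmb and Spp1 chose the cells and say nothing more about the label. Of 8 macrophage markers none was at 0, among them Adgre1, which encodes the F4/80 antigen, at 329 and 350 CPM and Csf1r, the receptor of macrophage colony stimulating factor, at 204 and 310 CPM.

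Each pool's counts were added up and compared for the 7080 genes with at least 10 CPM in either. At least 2-fold higher in lipid-associated macrophages were 206 genes (2.91%) and at least 2-fold lower were 287 (4.05%), and the median log2 ratio over all genes was 0.02. In thinned cells the counts were 400 and 593, and with a minimum of 50 CPM they were 46 and 63. The genes named below were ranked by whichever interval end lay closest to no difference, among genes with at least 50 CPM, a UMI in at least 10% of cells and no less than their level in stromal cells. The 20 genes so ranked as higher and the 10 as lower kept their direction under all 9 alternative settings of the cells and the calculation. Between 27 and all 30 of them stayed at least 2-fold apart. The ranks and the settings drew on the same library and contrast, so this is a description and no independent check of the ranks.

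Of the 20 genes ranked higher, 6 encode proteins of the lysosome or its proton pump, a grouping made after the ranks were seen. Ctsd (chromosome 7, 142375911 to 142388038), which encodes cathepsin D, was at 3884 CPM (3805 to 3964) in lipid-associated and 1845 CPM (1783 to 1909) in marker-zero macrophages, 2.11-fold higher, with 2232 CPM in 1-UMI macrophages. Ctsl, the gene of cathepsin L, was at 1640 and 779 CPM, with 1283 CPM in stromal cells. Ctsk (chromosome 3, 95499256 to 95509362), which encodes a cathepsin that breaks down collagen, was at 418 and 144 CPM, with 391 CPM in stromal cells. Acp5, the gene of tartrate-resistant acid phosphatase, a classical marker of osteoclasts, was at 118 and 37.4 CPM. Atp6v0d2 (chromosome 4, 19876841 to 19922605), a subunit of the proton pump that acidifies lysosomes, was at 335 CPM (312 to 359) and 111 CPM (96.1 to 128), 3.02-fold higher, and at 23.8 CPM in stromal cells. Gpr137b, which encodes a lysosomal membrane protein, was at 169 and 68.1 CPM. The first 3 of these genes are cathepsins, and the values of all 6 in 1-UMI macrophages lay nearer to those of marker-zero macrophages.

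A further 6 of the ranked genes encode lipid-binding, cell surface or secreted proteins, again grouped after the ranks were seen. Lgals3 (chromosome 14, 47367751 to 47386160), which encodes galectin-3, a lectin that binds damaged lysosomes and glycoproteins, was at 7425 CPM (7315 to 7536) in lipid-associated and 2482 CPM (2410 to 2556) in marker-zero macrophages, 2.99-fold higher, and at 692 CPM in stromal cells. Fabp5 (chromosome 3, 10012548 to 10016607), a fatty acid binding protein, was at 710 and 257 CPM. It was seen in 72.6% and 35.2% of cells, and in 53.4% and 26.9% of thinned cells. Mfge8, whose product bridges phagocytes to dying cells, was at 231 and 68.1 CPM, with 186 CPM in stromal cells. Itgax (chromosome 7, 128129547 to 128150657), which encodes the integrin CD11c often used to mark fat macrophages of obese mice, was at 80.6 CPM (69.6 to 92.9) and 15.6 CPM (10.4 to 22.6), 5.16-fold higher. Its UMIs were seen in 18.1% and 3.76% of cells (9.79% and 2.90% of thinned cells), so most of the chosen cells showed none at this depth. Adam8, a membrane metalloprotease, was at 212 and 69.7 CPM, and Anxa1, the gene of the phospholipid-binding protein annexin A1, was at 1299 and 567 CPM, with 887 CPM in stromal cells.

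The other genes among the 20 had few UMIs per cell, and Serpinb6b and Zranb3 had the largest ratios of all 20. Serpinb6b (chromosome 13, 32965209 to 32979067), an intracellular protease inhibitor, was at 79.8 CPM (68.8 to 92.0) and 13.4 CPM (8.58 to 19.9), 5.96-fold higher, with UMIs in 16.6% and 2.64% of cells. Serpinb6b was seen in 8.19% and 2.26% of thinned cells. Its family has close copies, between which reads may be split. Zranb3, a DNA annealing helicase, was at 92.5 and 17.3 CPM, and Actn1, the actin crosslinker alpha-actinin 1, at 91.2 and 25.7 CPM. Cpe, which encodes carboxypeptidase E, an enzyme of peptide precursors, was at 146 and 44.6 CPM. Syngr1, a vesicle membrane protein, was at 172 and 55.2 CPM, and Rnf128, a ubiquitin ligase, at 112 and 34.6 CPM. Il7r, the receptor of interleukin 7 better known from lymphocytes, was at 80.2 and 25.7 CPM, and Qpct, the glutaminyl cyclase that modifies chemokines, was at 160 and 58.6 CPM. The T cell markers Cd3d, Cd3e and Cd3g summed to 19.9 CPM in lipid-associated and 41.3 CPM in marker-zero macrophages.

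**Figure D2:**
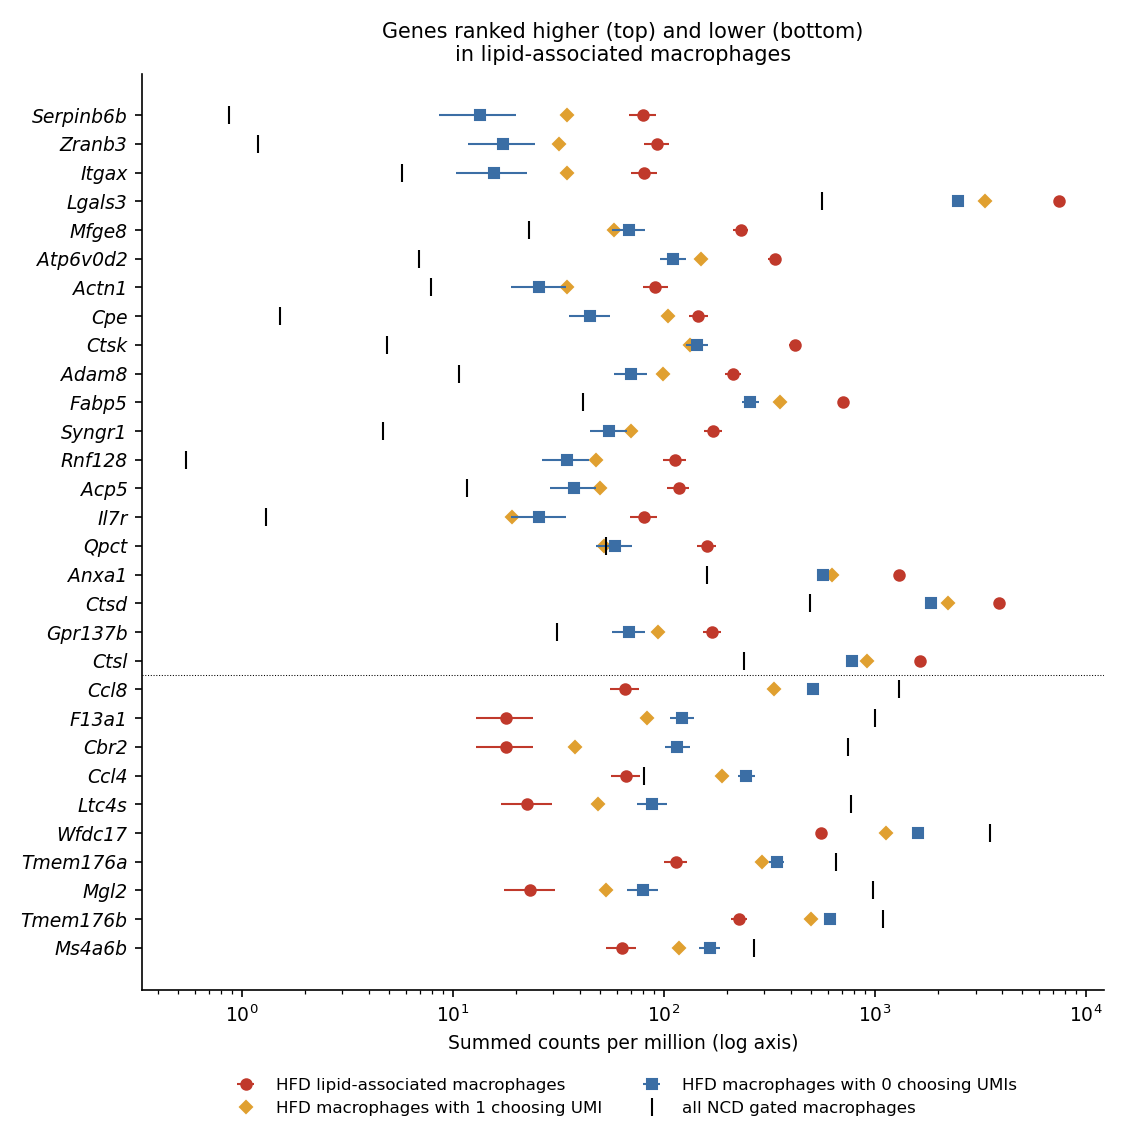
Levels (horizontal log axis, summed CPM) of the 20 genes ranked higher (top) and the 10 ranked lower (bottom) in HFD lipid-associated macrophages (red circles), 1-UMI macrophages (yellow diamonds) and marker-zero macrophages (blue squares), with the NCD gated macrophages as black ticks; bars are 95% Poisson intervals. Red and blue are apart for all 30 genes, and the NCD tick of Ccl4 (81.0) lies near its red circle (66.2).

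The promoters of the genes discussed were searched for the letters CACGTG, the core bound by Mitf, Tfeb and Tfe3, which are regulators of lysosome genes, and for TGANTCA, the core bound by AP-1 factors. Each reads the same on both strands, and none of the windows shown holds both. RefSeq promoters (GRCm38.p6, 250 bases before to 50 after the start site) matched 15 of the 20 higher genes, 9 of the 10 lower genes and all 4 markers. CACGTG was in 2 of the 15 and in none of the 9 or the 4, against 8.09% of 27025 genes, and among 32 matched genes of the lysosome and proton pump lists it was in 11 (34.4%). TGANTCA was in 1 of the 15, in none of the 9 and in 2 of the 4, against 8.97% of all genes. A match is a description of the letters, and nothing here measured binding. The first 280 bases of the 5 promoters that hold one of them are shown in capitals at the match. They are from chr6:49036268-49036547 (+ strand) for Gpnmb, chr17:48346151-48346430 (+) for Trem2, chr7:128129300-128129579 (+) for Itgax, chr7:142387798-142388077 (−) for Ctsd and chr13:64370491-64370770 (−) for Ctsl. In Ctsd the letters CACGTG begin 245 and 98 bases before the start site, and in Ctsl 236 bases before it. TGANTCA begins 9 bases before the start site in Trem2 and 56 before it in Itgax, and lies just after it in Gpnmb. The match in Trem2 reads TGAATCA, which is not an AP-1 core, while those in Itgax and Gpnmb read TGAGTCA and TGACTCA.
Gpnmb: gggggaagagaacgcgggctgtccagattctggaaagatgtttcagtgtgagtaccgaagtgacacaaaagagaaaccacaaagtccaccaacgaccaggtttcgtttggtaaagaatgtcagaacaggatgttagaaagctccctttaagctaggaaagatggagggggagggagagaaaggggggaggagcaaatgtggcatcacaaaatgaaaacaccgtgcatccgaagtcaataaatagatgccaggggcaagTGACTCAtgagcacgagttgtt
Trem2: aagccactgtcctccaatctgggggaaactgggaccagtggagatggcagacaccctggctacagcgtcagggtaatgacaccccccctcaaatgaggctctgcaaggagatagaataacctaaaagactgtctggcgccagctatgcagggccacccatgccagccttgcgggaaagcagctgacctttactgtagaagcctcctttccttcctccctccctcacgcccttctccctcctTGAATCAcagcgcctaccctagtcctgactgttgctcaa
Itgax: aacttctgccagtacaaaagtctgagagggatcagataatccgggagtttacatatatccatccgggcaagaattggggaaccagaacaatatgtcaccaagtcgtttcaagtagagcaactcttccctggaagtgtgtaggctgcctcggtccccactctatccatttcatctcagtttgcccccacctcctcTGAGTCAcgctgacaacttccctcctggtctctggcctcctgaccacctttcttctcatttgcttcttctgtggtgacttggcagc
Ctsd: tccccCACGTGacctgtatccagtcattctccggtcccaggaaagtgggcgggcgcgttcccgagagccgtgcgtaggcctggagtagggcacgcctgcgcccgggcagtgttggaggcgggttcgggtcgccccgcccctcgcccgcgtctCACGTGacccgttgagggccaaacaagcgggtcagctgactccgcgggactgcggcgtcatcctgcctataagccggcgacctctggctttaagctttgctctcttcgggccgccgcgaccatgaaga
Ctsl: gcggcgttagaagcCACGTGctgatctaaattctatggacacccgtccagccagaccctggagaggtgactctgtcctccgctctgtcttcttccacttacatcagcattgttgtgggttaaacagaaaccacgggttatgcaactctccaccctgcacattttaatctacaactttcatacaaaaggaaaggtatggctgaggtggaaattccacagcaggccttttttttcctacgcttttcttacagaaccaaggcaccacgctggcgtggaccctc

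The gene lists place these genes among the others of their pathways, each list read by its median log2 ratio and by how many measured members were at least 2-fold apart, against 2.91% and 4.05% of all genes. These lists were chosen with results of these cells known, and the medians describe them. The lipid-associated list had 25 measured members, of which 8 were at least 2-fold higher and none lower, with a median of 0.90. Of its intervals 22 lay above no difference. The 2 below it were of Apoe, the apolipoprotein that carries lipid out of macrophages, at 10142 CPM in lipid-associated and 18353 CPM in marker-zero macrophages, and Fabp4 at 989 and 1137 CPM. The interval of Hvcn1, at 28.8 and 26.2 CPM and named after its value was seen, held no difference. Of 10 measured genes of osteoclasts and cell fusion, 5 were at least 2-fold higher and none lower, with a median of 1.06. They were Acp5, Ctsk, Atp6v0d2, the fusion receptor gene Dcstamp (13.6 and 2.23 CPM) and the lysosomal chloride transporter gene Clcn7 (18.2 and 7.25 CPM). Tnfrsf11a (37.8 and 31.8 CPM), Mitf (41.2 and 35.1 CPM), Nfatc1 (11.5 and 8.93 CPM) and Ostm1 had intervals that held no difference. Calcr, Ocstamp, Itgb3 and Mmp9 are in the list but were under 10 CPM in both pools. The list therefore did not move as a block. Dcstamp, Clcn7 and these other members were named after their values were seen, and Ctsk, Atp6v0d2 and Dcstamp are in the lipid-associated list too. The pump list had 15 measured members, all with a ratio above 0 and 13 with an interval above it, a median of 0.50 and 3 at least 2-fold higher. Beside Atp6v0d2 those were Atp6v0a1 at 96.7 and 41.8 CPM and Atp6v1c1 at 134.5 and 62.5 CPM.

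Among 28 lysosome genes the shift was smaller, with a median of 0.32, 17 intervals above and 4 below no difference, and 1 gene at least 2-fold apart in each direction. Ctsb and Ctsz, 2 further cathepsin genes, were at 5161 and 1343 CPM in lipid-associated and at 3260 and 833 CPM in marker-zero macrophages. Psap, the precursor of the saposins that help split sphingolipids, was at 3638 and 2326 CPM, and Gusb, the gene of beta-glucuronidase, at 308 and 172 CPM. Ctsc, the gene of cathepsin C, which activates other proteases, went the other way at 274 and 617 CPM. The lysosome list therefore did not move as a block.

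Of 16 measured genes of fatty acid uptake and lipid droplets, 2 were at least 2-fold higher (Fabp5 and Hilpda) and none lower, with a median of 0.56. Their intervals lay above no difference for 7, below it for 1 (Fabp4), and held it for 8. Lpl, which encodes the lipase that frees fatty acids from triglyceride, was at 2955 and 1518 CPM, with 1466 CPM in stromal cells. Cd36, a fatty acid and oxidized lipid receptor, was at 2056 and 1089 CPM, and at 290 CPM in stromal cells. Hilpda, an inhibitor of lipolysis induced by lipid and low oxygen, was at 209 and 103 CPM. Plin2, the coat protein of lipid droplets, was at 1971 and 1279 CPM. Of 14 measured genes of fatty acid oxidation none was 2-fold apart and the median was 0.06, with Hadha, of the mitochondrial trifunctional protein, at 93.8 and 55.8 CPM. Ucp2, a mitochondrial carrier, was at 875 and 726 CPM, with a log2 ratio of 0.27 that was −0.06 in thinned cells. Cholesterol efflux and storage genes had a median of 0.25 with none of 13 at 2-fold. Among them Soat1, which esterifies cholesterol, was at 140 and 90.4 CPM and Nceh1, which frees it from its esters, at 109 and 60.8 CPM. The exporter gene Abcg1 was at 95.5 and 67.5 CPM and its regulator Nr1h3 (LXR alpha) at 56.9 and 37.4 CPM.

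Energy and growth genes shifted by less than 2-fold for most members. Glycolysis and hypoxia genes had a median of 0.35 over 16 measured, with 8 intervals above and none below no difference, and Pkm, the gene of pyruvate kinase, at 603 and 334 CPM. Pgk1, named after its value was seen, was the 1 member at least 2-fold higher, at 24.2 and 7.25 CPM. Oxidative phosphorylation genes had a median of 0.21, with 13 of 20 intervals above and none below, and Atp5b, of the ATP synthase, at 525 and 375 CPM. Of 23 cell cycle genes 3 were at least 2-fold higher and none lower, with a median of 0.40. Birc5, which acts in chromosome segregation, was at 77.2 and 34.0 CPM, Ube2c, which helps end mitosis, at 63.6 and 28.5 CPM, and the third was the cyclin gene Ccnb2. Stmn1, a microtubule regulator, was at 350 and 192 CPM. Mki67 and Top2a, markers of dividing cells that like Ccnb2 were named after their values were seen, were at 9.76 and 22.5 CPM in lipid-associated and at 10.6 and 23.4 CPM in marker-zero macrophages, and in thinned cells Mki67 was seen in 0.534% and 0.806%. The 7 measured cholesterol synthesis genes had a median of 0.47, with intervals that held no difference for 4 of them.

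**Figure D3:**
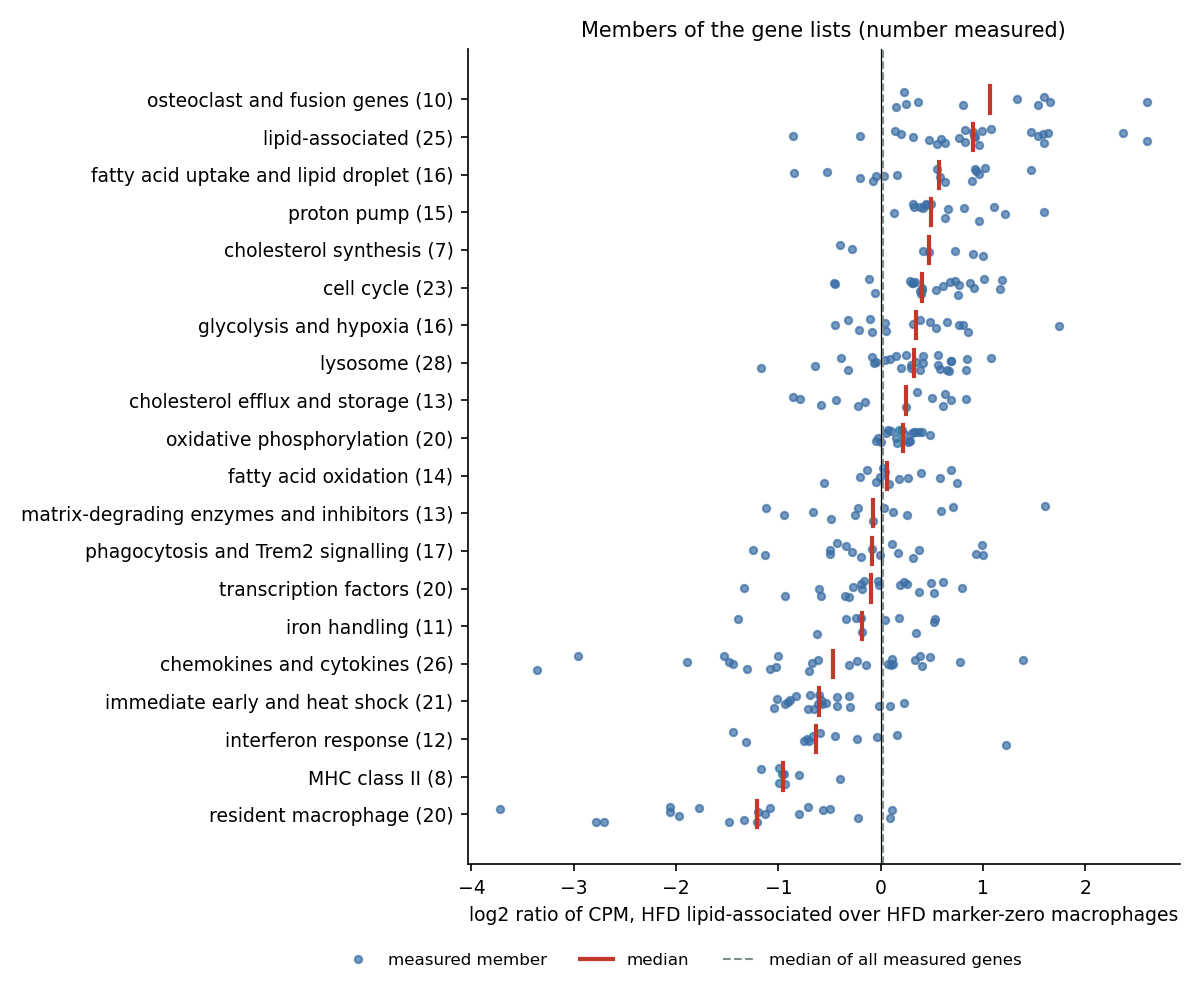
Log2 ratio of summed CPM (horizontal axis) of HFD lipid-associated over HFD marker-zero macrophages for each measured member (dots) of the 20 gene lists, with the list median in red. The osteoclast and fusion list has the highest median, 1.06, and the resident macrophage list the lowest, −1.21; the dashed line is the median of all genes, 0.02.

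Antigen presentation and resident macrophage genes were lower in the chosen cells. The MHC class II genes encode the molecules that show antigen to T cells. Of 8 measured, 7 had intervals below no difference and the median log2 ratio was −0.96. Cd74, the invariant chain, was at 9723 CPM (9597 to 9849) in lipid-associated and 19402 CPM (19198 to 19607) in marker-zero macrophages, with 17102 CPM in 1-UMI macrophages and 2595 CPM in stromal cells. The class II chain gene H2-Ab1 was at 2927 and 5824 CPM. Another, H2-Aa, was at 3034 and 5798 CPM, while H2-Eb1 was at 2081 and 4063 CPM. These genes were still frequent in the chosen cells, where H2-Aa was seen in 86.3%, against 92.6% of marker-zero macrophages (76.3% and 89.7% of thinned cells). One member was at least 2-fold lower, their activator Ciita at 5.94 and 13.4 CPM, named after its value was seen.

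Of 20 measured resident macrophage genes 13 were at least 2-fold lower and none higher, with a median of −1.21. Both pools were held to the same limit on Lyve1, Cd163 and Timd4, but that did not make them level. Lyve1 was still at 4.24 CPM in lipid-associated and 13.9 CPM in marker-zero macrophages, and Cd163 at 9.33 and 20.1 CPM. F13a1 (chromosome 13, 36867178 to 37050244), which encodes the coagulation factor XIII A chain, was at 17.8 CPM (12.8 to 24.1) and 122 CPM (107 to 139.5), 6.86-fold lower. Cbr2, a carbonyl reductase, was at 17.8 and 116 CPM, Ltc4s, the leukotriene C4 synthase gene, at 22.5 and 88.2 CPM, and Mgl2, a galactose-binding lectin, at 23.3 and 79.8 CPM. A single cell held 25.5% of the Mgl2 UMIs of the chosen cells. Maf, a transcription factor of resident macrophages, was at 65.8 and 166 CPM. Mrc1, the mannose receptor, was at 81.5 and 187 CPM. Folr2, the folate receptor beta gene also used to mark resident macrophages, was at 515 and 484 CPM. It was 1 of 3 members whose interval held no difference, with the growth factor gene Igf1 at 449.7 and 418 CPM and the ubiquitin ligase gene Wwp1 at 129 and 151 CPM, both named after their values were seen.

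Chemokines made up 2 of the 10 ranked lower genes. Ccl8 (chromosome 11, 82115185 to 82116799), an attractant of monocytes and other leukocytes, was at 65.3 CPM (55.4 to 76.5) in lipid-associated macrophages and 509 CPM (476 to 543) in marker-zero macrophages, 7.79-fold lower, with 334 CPM in 1-UMI macrophages. Ccl4 was at 66.2 and 246 CPM. Of the 26 measured chemokine and cytokine genes 10 were at least 2-fold lower and 1 higher, the growth factor gene Pdgfb at 16.1 and 6.14 CPM, which was named after its value was seen. Ccl12 was at 6.36 and 65.3 CPM, Ccl7 at 48.8 and 121 CPM and Ccl2 at 80.2 and 170 CPM, the last 2 with 180 and 199 CPM in stromal cells. The Ccl2, Ccl7, Ccl8 and Ccl12 genes are close copies on chromosome 11, between which reads may be split. The other ranked lower genes were Wfdc17, a small secreted protein of activated macrophages, at 559 and 1603 CPM, Ms4a6b at 63.2 and 165 CPM, and the pair Tmem176a (114 and 343 CPM) and Tmem176b (227 and 615 CPM). The last 2 encode ion channel proteins of antigen-presenting cells and overlap on opposite strands of chromosome 6, and whether counting used strand is not given in the sources used here.

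Other lists gave smaller or mixed shifts. Immediate early and heat shock genes, which are quickly switched on by stimuli and stress, had a median of −0.61, with 18 of 21 intervals below and 2 above no difference, and Ier2 was at 268 and 540 CPM. Of 12 measured interferon response genes 2 were at least 2-fold lower and 1 higher, with a median of −0.63, and Ly6e was at 114.5 and 286 CPM, with 390 CPM in stromal cells. Phagocytosis and Trem2 signalling genes had a median of −0.08, with the integrin gene Itgb2 at 203 and 102 CPM and Fcgr2b, the inhibitory Fc receptor, at 67.5 and 160 CPM. Matrix-degrading enzymes and their inhibitors had a median of −0.08, with 3 intervals above and 4 below no difference. Adam8 was the 1 gene at least 2-fold higher, and Mmp14, a membrane metalloprotease named after its value was seen, was the 1 at least 2-fold lower, at 11.0 and 24.0 CPM. Timp1, an inhibitor of such enzymes, was at 75.9 and 121 CPM, but at 710 CPM in stromal cells, and its log2 ratio of −0.67 was 0.06 in thinned cells. Iron handling genes had a median of −0.18, while the ferritin genes Ftl1 and Fth1 were at 31718 and 12554 CPM in lipid-associated and at 22116 and 9860 CPM in marker-zero macrophages. Transcription factors had a median of −0.10, with Creg1, a secreted lysosomal protein kept in that list, at 594 and 343 CPM.

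Across all gated HFD macrophages within the limit on resident genes, thinned to 1500 UMIs, levels shifted step by step with the UMIs of Gpnmb, Spp1 and Mmp12. The 6 steps held 799, 315, 131, 129, 77 and 55 cells with 0, 1, 2, 3 to 4, 5 to 9 and 10 or more such UMIs. Trem2 was at 874, 1170, 1430, 1721, 1905 and 1903 CPM in that order, and so was level at the top. Lgals3 was at 2617, 3928, 6025, 7581, 8667 and 10315 CPM, and Ctsd at 1927, 2783, 3405, 3959, 5004 and 5855 CPM, both higher at each step. Cd9 was at 554, 698, 840, 925, 1048 and 1891 CPM, and its level in the last step stood apart. These steps use the counts that chose the cells, so they are a description.

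The lower genes ran the other way over the same steps. Apoe was at 17252, 14993, 12117, 9101, 7922 and 5939 CPM, and Cd74 at 17153, 13898, 10137, 9158, 7048 and 4752 CPM. Retnla, which encodes a resistin-like secreted protein, was at 2167, 1137, 499, 336, 649 and 133 CPM. C1qa, 1 of the complement genes of the gate, was at 4406, 3765, 3501, 3183, 2511 and 2448 CPM. The 15 stromal markers of free RNA summed to 2481, 2698, 2794, 2274, 1792 and 1212 CPM, so the top 2 steps also held the least of them. The lipid-associated list summed to 38567 CPM at 0 UMIs and 50558 CPM at 10 or more, the osteoclast and fusion list to 466 and 2024 CPM, the lysosome list to 17811 and 30582 CPM and the MHC class II list to 31485 and 9430 CPM. At 1 UMI, just below the limit, each of these 4 sums already lay between those of the steps on both sides.

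**Figure D4:**
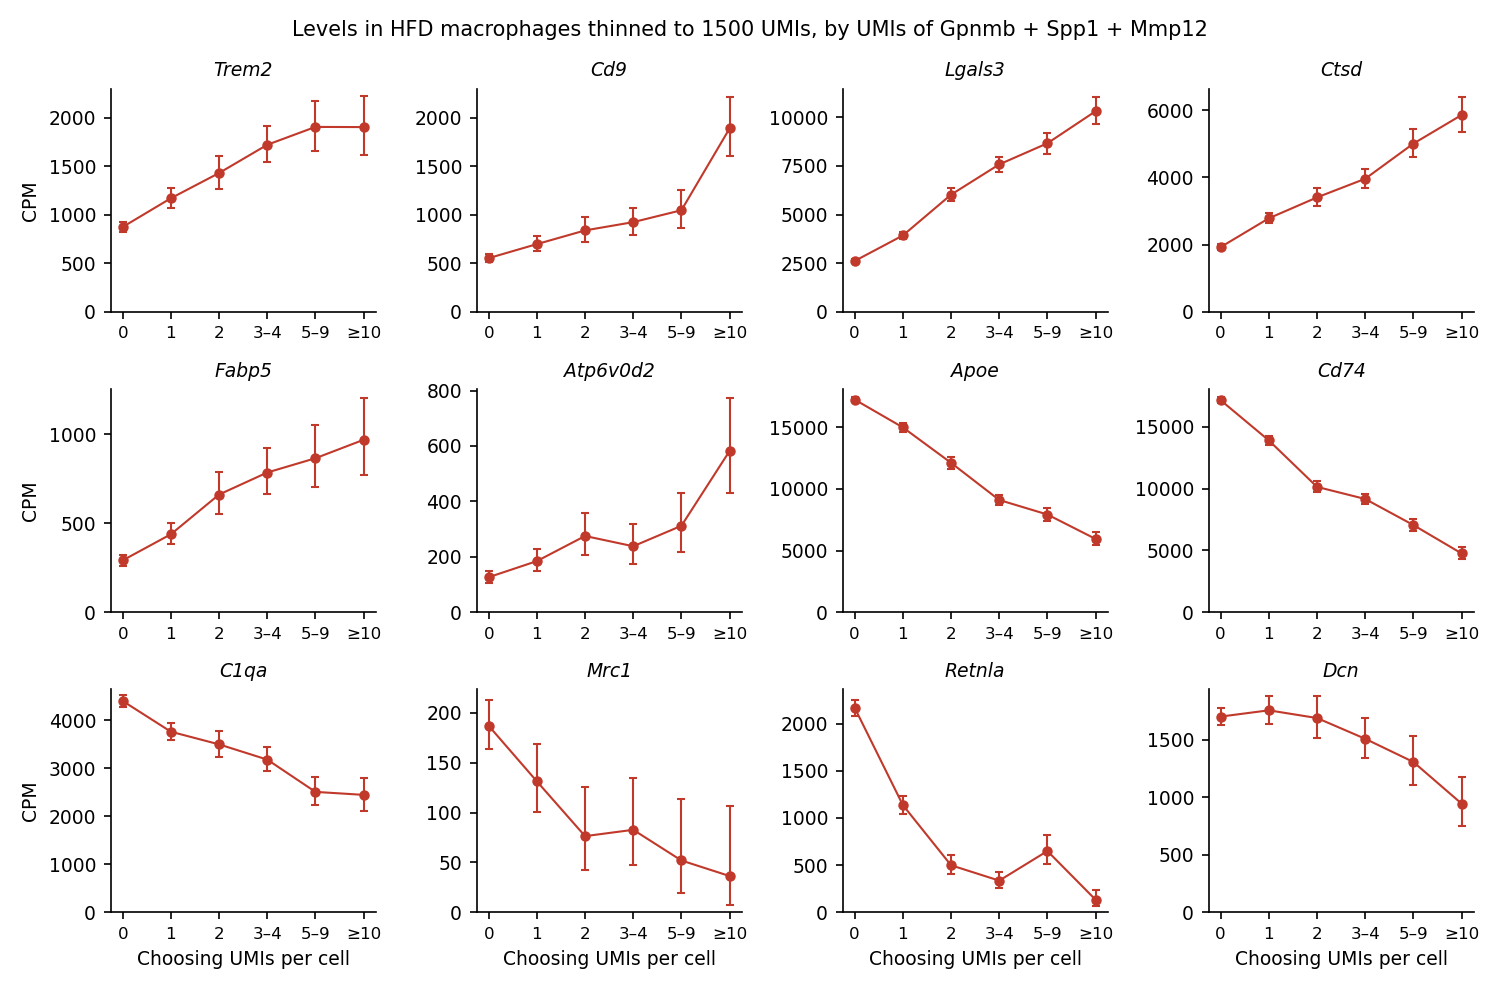
Summed CPM (vertical axes, with 95% Poisson bars) of 12 genes in HFD gated macrophages thinned to 1500 UMIs, against the UMIs of Gpnmb, Spp1 and Mmp12 per cell (horizontal axes). Trem2, Cd9, Lgals3, Ctsd, Fabp5 and Atp6v0d2 are highest at 5 or more UMIs, while Apoe, Cd74, C1qa and Mrc1 are lowest at 10 or more, as is the stromal gene Dcn, a marker of free RNA.

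The 592 HFD cells also differed among themselves by which of the 3 genes they held. The 496 with a UMI of Gpnmb were set against the 96 without, which had to reach 2 UMIs by Spp1 or Mmp12 alone. Median depths were alike, at 2519.5 and 2484.5 UMIs. Mfge8 was at 268 and 37.5 CPM, 7.15-fold higher (log2 2.84, 2.08 to 3.72), and Ctsk was at 466 and 163 CPM. Syngr1 was at 191 and 72.2 CPM, and Cpe at 162 and 61.5 CPM. The MHC class II list had a median of −0.95 over 9 measured members, 2 of them at least 2-fold lower, against 6.18% of all genes, with H2-Aa, a chain of these molecules, at 2642 and 5118 CPM and Cd74 at 8689 and 15208 CPM. Of the lipid-associated list 3 of 25 were at least 2-fold higher, against 5.81% of all genes, and Trem2 was at 1715 and 1407 CPM.

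The 235 cells with Spp1 were set against the 357 without, with median depths of 2838 and 2351 UMIs. Retnla was 5.52-fold lower, at 209 and 1153 CPM, and 1 cell held 29.3% of its UMIs in the cells without Spp1. Ccnd1, which encodes the cell cycle regulator cyclin D1, was at 140 CPM with Spp1 and 49.97 CPM without, and Odc1, the first enzyme of polyamine synthesis, at 92.1 and 44.4 CPM. Il1rn, the antagonist of the interleukin 1 receptor, was at 71.1 and 32.5 CPM. The lipid-associated list had a median of −0.07, with 1 of 25 at least 2-fold higher, against 3.47% of all genes, and none at least 2-fold lower, against 3.04%. Trem2 was at 1609 and 1717 CPM and Cd9 at 976 and 892 CPM, so both markers stood close to level between these cells.

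The 358 cells with Mmp12 were set against the 234 without, with median depths of 2600 and 2421.5 UMIs. Of 23 cell cycle genes 9 were at least 2-fold higher and none lower, against 3.26% and 2.75% of all genes, with a median of 0.53. Ube2c was at 87.8 and 25.2 CPM and Birc5 at 103 and 36.2 CPM, and single cells held 18.1% and 8.72% of their UMIs in the cells with Mmp12. Ctsk was at 526 and 246 CPM and Itgax at 102 and 47.2 CPM. The resident macrophage list had a median of −0.52, and Fcgr1, the high-affinity Fc receptor, was at 78.9 and 166 CPM. The plasma cell gene Jchain and the lysozyme gene Lyz1 also differed in these splits by more than 3-fold. In cells with Spp1, 1 cell held 72.7% of the Lyz1 UMIs, and in cells without Gpnmb 1 cell held 51.8% of the Jchain UMIs, so both are given as counts of few cells.

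**Figure D5:**
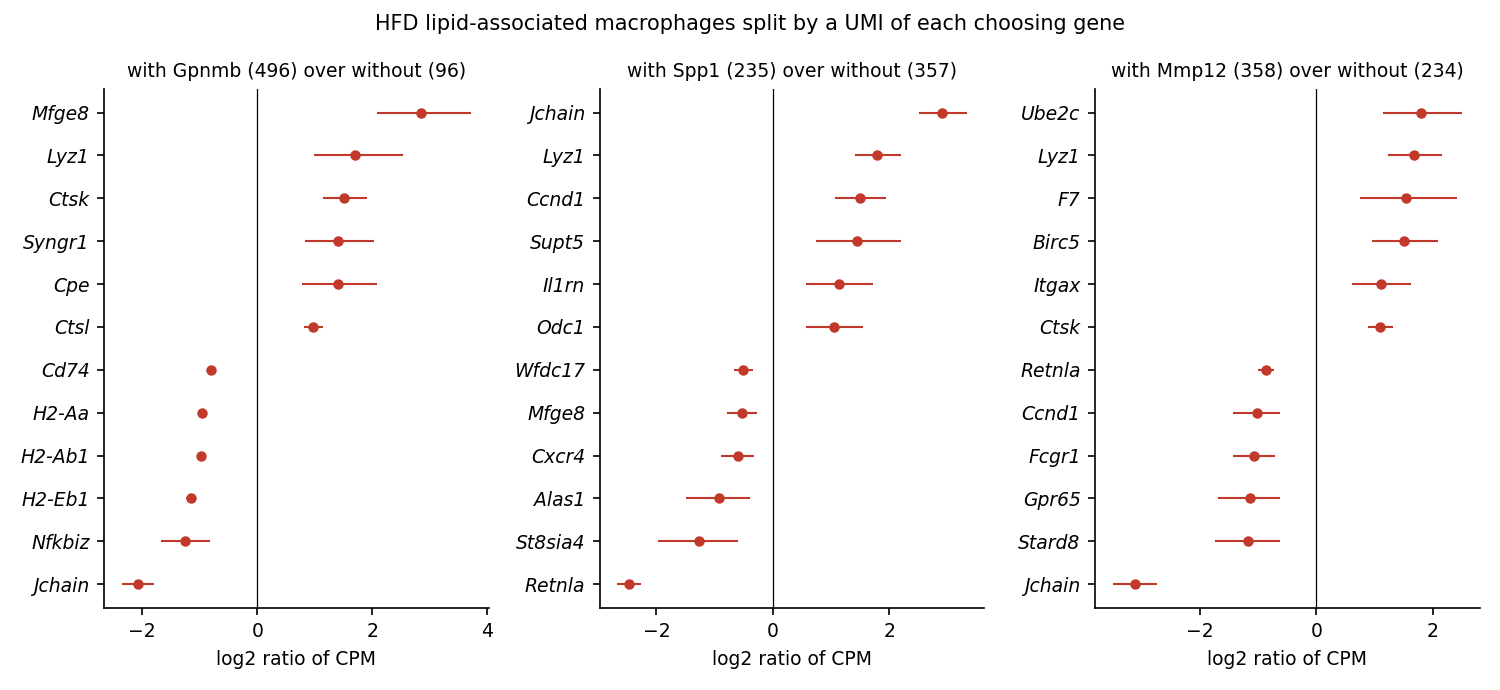
Log2 ratio of summed CPM (horizontal axes, with 95% intervals) of the 6 genes ranked highest and the 6 ranked lowest in HFD lipid-associated macrophages with a UMI of Gpnmb, Spp1 or Mmp12 over those without. Mfge8 stands at 2.84 for Gpnmb, Retnla at −2.46 for Spp1 and Ube2c at 1.80 for Mmp12.

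Against the 2274 gated macrophages of the NCD library, of which 72.5% were over the limit on resident genes, 698 of 7504 genes (9.3%) were at least 2-fold higher and 1129 (15%) at least 2-fold lower. Median depths were 2518 and 3804 UMIs. Rnf128 was at 112 CPM in HFD lipid-associated and 0.543 CPM in NCD macrophages, Cpe at 146 and 1.52 CPM, Ctsk at 418 and 4.88 CPM and Atp6v0d2 at 335 and 6.95 CPM. Cadm1, an adhesion gene, was at 167 and 3.04 CPM, but also at 87.0 CPM in HFD marker-zero macrophages. All 8 genes ranked higher in this way were also higher in HFD 1-UMI macrophages than in NCD macrophages, with Rnf128 at 47.7 CPM in 1-UMI macrophages. Trem2 was at 1666 and 127 CPM and Cd9 at 931 and 42.4 CPM. Of the lipid-associated list 21 of 25 were at least 2-fold higher, with a median of 2.26. The members of that list named here were also above NCD macrophages in HFD marker-zero macrophages. There Trem2 was at 839 CPM, Cd9 at 496 CPM, Ctsk at 144 CPM and Atp6v0d2 at 111 CPM. The difference from the NCD library was therefore not particular to the chosen cells.

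Genes lower than in NCD macrophages were led by scavenger lectins. Cd209d had 2 UMIs in the HFD cells, at 0.849 CPM, against 539 CPM in NCD macrophages, a 635-fold difference with a log2 interval of −12.36 to −7.46. Cd209f was at 9.76 and 1263 CPM and Cd209g at 2.55 and 488 CPM, and these lectins are close copies. They were also far below the NCD level in HFD marker-zero macrophages, with Cd209d at 11.2, Cd209f at 40.7 and Cd209g at 10.6 CPM. Their low level was therefore not particular to the chosen cells. The ribonuclease gene Rnase2a, the gelatinase gene Mmp9 and the phospholipase gene Pla2g2d had 0 UMIs in the 592 cells, and were at 144, 122 and 116 CPM in NCD macrophages. Set to 3 UMIs over the 592 cells, that is at least 113-fold, 95.9-fold and 91.4-fold lower. In the 601 NCD macrophages with none of the 3 choosing genes and at most 1 resident UMI these 3 genes were at 74.0, 73.6 and 83.9 CPM. Mmp9 was at 3.35 CPM in HFD marker-zero macrophages. The choice itself held down Lyve1, at 4.24 and 715 CPM. Against those 601 cells, 682 of 7420 genes (9.19%) were at least 2-fold higher and 1029 (13.9%) at least 2-fold lower, and the MHC class II list had a median of −1.87.

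The 12 NCD cells had a median of 6833.5 UMIs, against 3622 UMIs in NCD marker-zero macrophages. They held 114 UMIs of Mmp12, of which 71 were in 1 cell, 14 of Spp1 and 5 of Gpnmb, and 1 cell held more than 1 of the 3 genes. Of the 20 genes ranked higher in HFD cells 13 had a UMI in them, 11 of those lay on the same side as in the HFD library, and 8 had intervals on that side. Of the 10 ranked lower all lay on the same side and 9 had such intervals. The share of all genes on the same side is not given here, so these counts are a description. The 5 dendritic cell markers summed to 227 CPM in the 12 cells and 117 CPM in NCD marker-zero macrophages. In the HFD lipid-associated macrophages they summed to 5.09 CPM, so whether the 12 are the same cell type is not settled. Lgals3 was at 3068 CPM in the 12 cells and 845 CPM in NCD marker-zero macrophages, Cd9 at 406 and 73.6 CPM and Ccl8 at 35.8 and 440 CPM. Cd74 was at 38141 and 33566 CPM, where the HFD cells had stood lower, and Trem2 was at 155 and 116 CPM with an interval that held no difference.

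Apart from stromal markers, markers of other cell types were low in the HFD cells, though those of mast cells or basophils stood above marker-zero macrophages. Of 5 dendritic cell markers none was at 0, and they summed to 5.09 CPM in lipid-associated and 17.9 CPM in marker-zero macrophages. The 4 monocyte markers summed to 67.9 and 133 CPM, but to 319 CPM in HFD stromal cells, so they do not measure monocytes alone. The 3 neutrophil markers summed to 6.79 and 16.2 CPM and the 3 B cell markers to 36.9 and 73.1 CPM. Natural killer markers summed to 6.79 and 15.1 CPM and endothelial markers to 34.4 and 90.4 CPM. Mast cell or basophil markers summed to 128 and 88.2 CPM, with Mcpt8 at 1 UMI and at 0, and the 3 plasma cell markers to 199 and 271 CPM, with 52393 CPM in the highest of the 592 cells. The adipocyte markers Plin1 and Cidec were at 0 in lipid-associated macrophages and Adipoq had 1 UMI, and the mural markers Myh11 and Notch3 and the mesothelial marker Upk3b were at 0 too. The 5 stromal markers summed to 2130 and 3329 CPM, the median cell holding 1926 and 3297 CPM. The stromal gene Dcn was seen in 85.8% of lipid-associated and 84.6% of marker-zero macrophages. With called doublets left out, all 30 ranked genes kept their direction and stayed at least 2-fold apart. Of the 592 cells 9 were called doublets (1.52%), against 16 of 719 marker-zero macrophages (2.23%), after Scrublet's own threshold had called 0 HFD barcodes and the 5% with the highest scores were taken instead. Mitochondrial UMIs were 3.81% and 3.43% of the median cell.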

How the data were processed

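The deposited files hold raw UMI counts per gene and cell barcode for 27998 genes in 1 HFD and 1 NCD library. Cell Ranger, Seurat and mm10 are named in the submitters' processing notes, with no versions stated. The HFD library had 6840 barcodes and 18623508 UMIs (median 2020 a barcode), and the NCD library 7365 barcodes and 33825653 UMIs (median 4230). The members and gene lists were chosen with earlier results of these data known.

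From the counts, UMIs were summed over the cells of a pool and scaled to CPM over the pool's own total. Ratios have exact conditional binomial intervals, levels exact Poisson intervals and shares exact Clopper-Pearson intervals, all at 95%. A gene was measured at 10 CPM or more in either pool, and 0 UMIs were set to 3 for a bound. Ranks followed whichever interval end lay closest to no difference, with at least 50 CPM in the higher pool, UMIs in at least 10% of its cells and no less than the stromal level. Mitochondrial, ribosomal, haemoglobin, receptor variable, predicted and choosing genes were left out. Up to 20 higher and 10 lower genes were named within the HFD library, 8 each way against NCD, 6 each way between subsets and 6 from each of the 20 lists. Members named outside that rule are said to be so. Doublets were scored with Scrublet in scanpy 1.11.5 and were kept. Coordinates are of GENCODE vM21 on GRCm38. Close gene copies may split reads. Python 3.11.15, numpy 2.4.6, scipy 1.17.1, pandas 2.3.3 and matplotlib 3.10.9 were used, and the calculations were tested on simulated data. Alternatives changed the cell filter, doublets, depth, the UMI limit, the comparison cells, free RNA, the average, the choosing UMIs and the minimum level.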

Additional observations from a re-analysis of the deposited data

Results flagged for a closer look

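Cells outside the macrophage gate also held the 3 choosing genes. Of 1357 HFD cells under both the C1q and the stromal limit, 334 had at least 2 UMIs of Gpnmb, Spp1 and Mmp12 (24.6%, 22.3 to 27.0), against 38 of 1767 such NCD cells (2.15%). These 334 cells are in none of the comparisons and drew attention because their share was above that in the NCD library. Their median depth was 2314 UMIs and their median C1q share 0.249%. Mmp12 was at 3167 CPM in them, Gpnmb at 1443 CPM and Spp1 at 461 CPM. Trem2 was at 1079 CPM, Lgals3 at 7763 CPM and Cd68 at 1050 CPM, and the dendritic cell marker Cd209a at 32.0 CPM. In the 592 lipid-associated macrophages Trem2 was at 1666 CPM and Cd209a at 1.70 CPM.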

How the results depend on the processing

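No paired analysis was possible because each diet had 1 library, and no replicate could be left out. The share of HFD gated macrophages that were lipid-associated, 33.9%, was 42.8% with a minimum of 1000 genes and no more than 10% mitochondrial UMIs, 25.1% in thinned cells, 53.1% with at least 1 choosing UMI and 24.0% with at least 3. The counts of genes at least 2-fold higher and lower, 206 and 287, were 400 and 593 in thinned cells, 122 and 151 with at least 1 choosing UMI, 522 and 487 with free RNA subtracted, and 361 and 522 when one part of the UMIs chose the cells and the other was measured. With a minimum of 50 CPM they were 46 and 63, and with none beyond 1 UMI 1415 and 1899, where more genes were tested. Against NCD macrophages, 698 and 1129 became 283 and 355 at 50 CPM, and 3658 and 2225 without the minimum. The lipid-associated median, 0.90, was 0.71 with at least 1 choosing UMI and between 0.78 and 0.96 otherwise, and the lysosome median, 0.32, lay between 0.21 and 0.36. The MHC class II median, −0.96, was −1.22 under the stricter cell filter, −0.68 with at least 1 and −1.10 with at least 3 choosing UMIs, −1.23 with free RNA subtracted, −0.75 as a mean over cells and −1.10 with split UMIs. In thinned cells the log2 ratio of Ucp2 was −0.059 and that of Timp1 0.060, both turned in sign. The causes were not tested. Leaving out called doublets, which were few, moved none of 175 single-gene ratios by more than its interval. Thinning moved 72, turned 2 in sign and left 99 within it. Free RNA subtraction moved 56 and left 69, and at least 1 choosing UMI moved 49 and left 78. The stricter cell filter, at least 3 choosing UMIs, split UMIs, other comparison cells and the mean over cells each moved between 22 and 33. For the subset ratios, leaving out doublets and thinning were chosen after seeing the data.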
